A study of Homo sapiens with 13 samples.

Results

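The comparison set 7 T-cell acute lymphoblastic leukemia (T-ALL) lines against 6 B-cell precursor (BCP-ALL) lines, grouped by the phenotype that the sample labels give. All 13 of the 13 arrays in the series were used, so the 2 groups together are the whole series. Jurkat, Molt4, CCRF-CEM, P12-ICHIKAWA, TALL-1, HPB-ALL and ALL-SIL made up the T-ALL group, and REH, 697, RS4,11 (usually written with a semicolon), Nalm6, Nalm16 and Nalm30 the BCP-ALL group. Every line was an untreated, established human leukemia line grown in RPMI-1640 medium with serum, and each gave total RNA to 1 HG-U133 Plus 2.0 array. By its label each array is a different line, with the lesions of the leukemia it came from, and no line has a second array. The spread within a group is a spread between leukemias only as far as the lines are independent. This was not shown for 2 close pairs of arrays described below. Values are the authors' log2 signals with 16 added before the log, so that 4 is the lowest possible level, and a value within 1 log2 unit of 4 is called near the floor. Every difference below is the mean of the 7 T-ALL lines minus the mean of the 6 BCP-ALL lines on that scale, which understates the change of a gene that is near the floor in 1 group.

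T-ALL arises from precursors that would mature in the thymus, and BCP-ALL from precursors that would mature in the bone marrow. Both kinds of precursor are driven forward by a receptor built from recombined gene segments, and both use related sets of kinases, adaptors and lipases to carry its signal. In the thymus, Notch ligands on the stroma hold progenitors in the T lineage, and activating lesions of NOTCH1 are common in T-ALL. In the marrow, EBF1 and PAX5 hold progenitors in the B lineage, which also begins to express class II antigen presentation genes.

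The lines carried the markers of their label. CD3D ran from 11.56 to 12.25 in the 7 T-ALL lines and from 4.0 to 4.38 in the 6 BCP-ALL lines, and CD3E, its partner in the T-cell receptor complex, from 9.82 to 10.29 and 4.0 to 4.25. PAX5, the B-lineage commitment factor, was 10.52 to 11.27 (median 10.66) in BCP-ALL and 4.02 to 4.59 (median 4.30) in T-ALL, and CD74, the class II invariant chain, was 10.77 to 11.87 and 4.0 to 4.75. The mean level of 7 T-cell markers was 8.35 to 9.97 in T-ALL and at most 4.54 in BCP-ALL, and that of 6 B-cell markers was 10.31 to 10.97 in BCP-ALL and at most 5.34 in T-ALL. Within T-ALL the marker CD2 was 4.51 in Molt4 and 4.57 in CCRF-CEM, close to the floor, and CD79A reached 8.15 in P12-ICHIKAWA. Of 21 measured markers of myeloid, erythroid and other cells, 9 had enough signal to be tested and 0 passed by limma (1 at an unadjusted p under 0.05), although LYZ was 11.20 in Nalm6 and MPO 12.11 in REH. P12-ICHIKAWA and TALL-1 gave nearly the same array (r = 0.993 over all probe sets), and Nalm16 and Nalm30 were close to each other (r = 0.959) and apart from the rest, with r of 0.805 to 0.879 to the other BCP-ALL lines, which correlated among themselves at 0.913 to 0.927. Each call below was therefore repeated with each close pair averaged as 1 line and without Nalm16 and Nalm30, and calls that ended are named where the gene is described.

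Of 12560 genes tested, 497 (3.96%) were higher and 461 (3.67%) were lower in T-ALL at a limma adjusted p under 0.05. The median difference over all 12560 genes was 0.03. Of the genes that passed, 106 and 81 differed by less than 1 log2 unit, 182 and 203 by over 2, and 35 and 41 by over 4. In 213 of the higher and in 213 of the lower genes the 2 groups of lines did not overlap at all, where all 7 T-ALL lines lay above the BCP-ALL lines in 1.88% of all genes tested and below them in 1.82%. For 83 of the higher genes every BCP-ALL line was near the floor, and for 89 of the lower genes every T-ALL line was. With each close pair averaged as 1 line, 229 genes (1.82%) were higher and 243 (1.93%) were lower, of which 227 and 242 were also in the first count. Without Nalm16 and Nalm30 the counts were 321 and 347. These are bulk RNA values, in which fewer expressing cells in a culture and less RNA in each cell cannot be told apart.

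**Figure D1:**
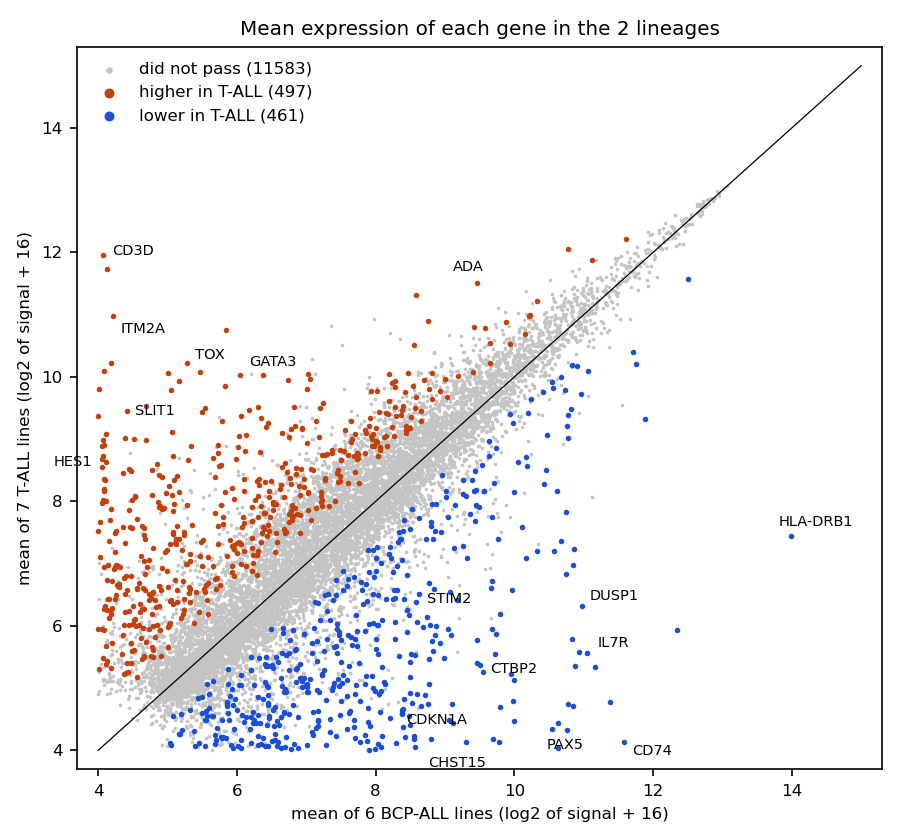
Mean log2 level of each gene in the 6 BCP-ALL lines (horizontal) and in the 7 T-ALL lines (vertical), with 1 point per gene for 12541 of the 12560 genes tested (19 X-inactivation and Y-linked genes are not drawn) and the diagonal where both means are equal. The 497 higher genes (orange) and 461 lower genes (blue) lie off the diagonal at every level, and CD3D and CD74 are among the farthest from it.

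The largest differences were not all antigen receptor genes. SLIT1, a secreted ligand of Robo receptors best known from axon guidance, was 8.75 to 10.03 in the T-ALL lines and 4.17 to 4.61 in the BCP-ALL lines, a difference of 5.05 (SE 0.19, adjusted p = 1.19e-09). No line of either lineage came near the other's range. ITM2A, a membrane protein of developing T cells, was 7.67 to 12.51 (median 10.83) in T-ALL and 4.0 to 4.48 (median 4.14) in BCP-ALL, a difference of 6.77 (SE 0.65, adjusted p = 1.58e-05). SH2D1A, the adaptor of SLAM family receptors, differed by 6.04 (SE 0.28, adjusted p = 7.51e-09). The HMG-box factor TOX, needed for thymocyte development, was 9.93 to 10.56 (median 10.14) in T-ALL and 4.23 to 7.27 (median 4.99) in BCP-ALL, where 697 was the highest, and differed by 4.95 (SE 0.44, adjusted p = 7.11e-06). AIF1, an actin-bundling calcium-binding protein, was 9.75 to 11.17 in T-ALL, and REH came close to that range at 9.54, a difference of 4.91 (SE 0.72, adjusted p = 0.000902).

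Several of the largest differences left out single lines. FAT1, an atypical cadherin, was 9.33 to 11.26 in all 7 T-ALL lines, at most 4.25 in 5 BCP-ALL lines and 9.65 in 697, a difference of 5.06 (SE 0.81, adjusted p = 0.00162). BEX3, a small adaptor of the p75 neurotrophin receptor, was between 9.97 and 11.19 in 6 T-ALL lines and at the floor in ALL-SIL and in every BCP-ALL line, a difference of 5.79 (SE 0.97, adjusted p = 0.00221). The cytokine gene IL32 was at the floor in Molt4, 6.36 in HPB-ALL and 9.54 to 12.26 in the other 5 T-ALL lines, a difference of 5.37 (SE 1.14, adjusted p = 0.0111), and its adjusted p was 0.0589 with the close pairs averaged. CD1B, which presents lipid antigens on cortical thymocytes, was near the floor in CCRF-CEM (4.25) and highest in HPB-ALL (12.11), with a difference of 4.97 (SE 0.99, adjusted p = 0.00765). TRBC1, a constant segment of the T-cell receptor beta chain, was lowest in ALL-SIL (9.03) and at least 11.97 in the other 6 T-ALL lines, a difference of 7.61 (SE 0.46, adjusted p = 1.5e-07). Its near-identical partner TRBC2 can share these probes.

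On the BCP-ALL side, the largest differences included genes of several functions. CD24, a small glycosylphosphatidylinositol-anchored surface protein, was 4.33 to 5.96 (median 4.59) in T-ALL and 9.53 to 12.20 (median 11.70) in BCP-ALL, where RS4,11 was the lowest line, a difference of -6.60 (SE 0.39, adjusted p = 1.41e-07). The inhibitory lectin CD22 was 4.53 to 4.86 (median 4.75) and 9.14 to 12.05 (median 10.74), a difference of -6.13 (SE 0.38, adjusted p = 2.08e-07), and the lineage factor EBF1 was 4.08 to 5.00 (median 4.27) and 9.84 to 11.09 (median 10.48), a difference of -6.19 (SE 0.22, adjusted p = 4.71e-10). NCF4, a cytosolic subunit of the phagocyte NADPH oxidase, was at or near the floor in every T-ALL line (4.0 to 4.92) and 9.0 to 10.42 in BCP-ALL, a difference of -5.65 (SE 0.24, adjusted p = 2.96e-09). IGHM, the mu heavy chain, was 4.32 to 6.91 in T-ALL, highest in ALL-SIL and HPB-ALL, and 10.19 to 11.86 in BCP-ALL, a difference of -5.83 (SE 0.44, adjusted p = 1.52e-06). MEF2C, a factor of early B-cell development, was at most 4.32 in 6 T-ALL lines and 8.57 in CCRF-CEM, against 9.98 to 11.67 in BCP-ALL, a difference of -6.02 (SE 0.68, adjusted p = 8.36e-05). The groups did not overlap for any of these 6 genes.

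**Figure D2:**
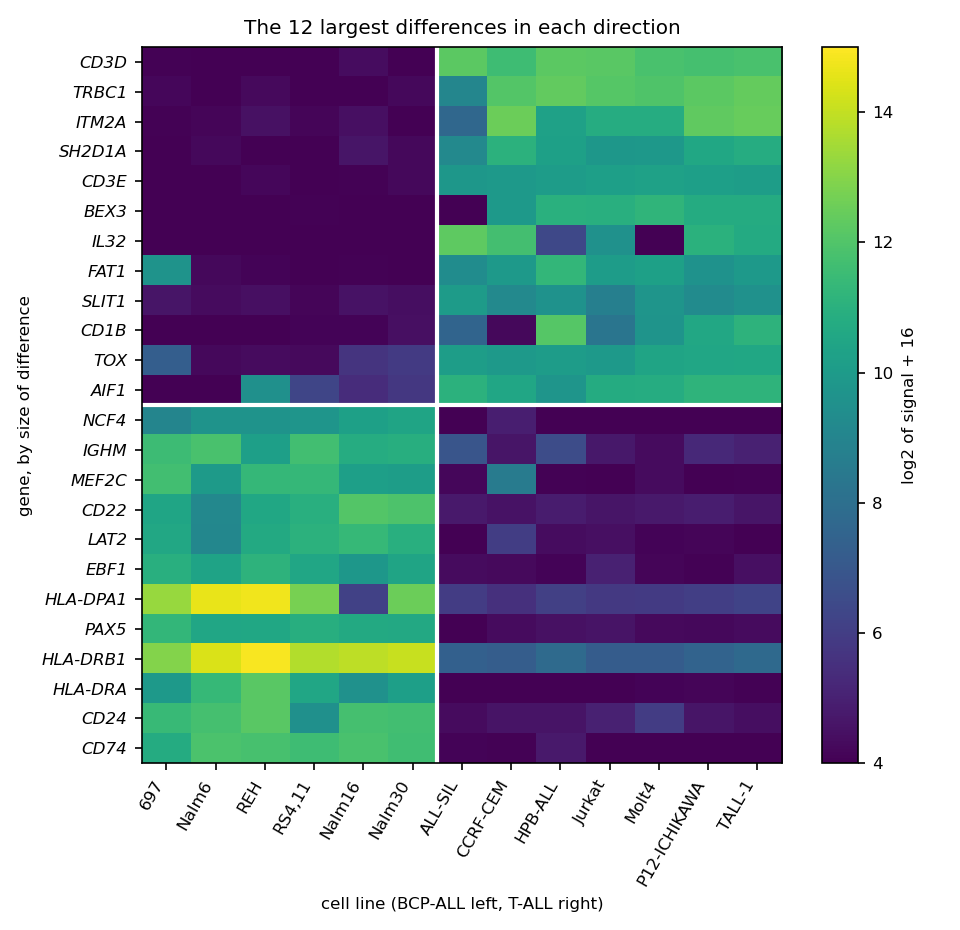
Log2 level (color) of the 24 genes that differed most, 12 in each direction, in rows, in each of the 13 lines, in columns, with a white line between BCP-ALL and T-ALL lines and between the 2 directions. FAT1 in 697, BEX3 in ALL-SIL, IL32 in Molt4, MEF2C in CCRF-CEM and HLA-DPA1 in Nalm16 stand apart from their own lineage.

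Antigen receptor signaling is carried in T and B cells by paired relatives, and members of these pairs differed in both directions. Of 28 tested members of 16 such pairs, 8 were higher (28.57%) and 8 were lower (28.57%) in T-ALL, with a median difference of 0.59. Over all genes the shares were 3.96% and 3.67%, here and for each list below, and the median difference was 0.03. Each pair was set up as a T-side and a B-side member with earlier results known, so calls in both directions were partly built into the list. Among the Src-family kinases that start the signal, LCK was 10.33 to 12.11 (median 11.46) in T-ALL and 6.92 to 10.03 (median 8.53) in BCP-ALL, a difference of 2.73 (SE 0.46, adjusted p = 0.00241), so every BCP-ALL line still had it well above the floor. LYN, the B-side kinase, was 6.58 to 9.58 (median 8.30) in BCP-ALL and 4.0 to 4.31 (median 4.09) in T-ALL, a difference of -4.18 (SE 0.36, adjusted p = 5.62e-06). BLK was 6.96 to 9.55 (median 7.74) in BCP-ALL and 4.0 to 6.71 (median 4.09) in T-ALL, a difference of -3.13 (SE 0.56, adjusted p = 0.00379). FYN, the other T-side kinase, overlapped between the lineages, with a difference of 1.43 (adjusted p = 0.211). ZAP70 and SYK act next. ZAP70 was 8.63 to 10.49 (median 8.97) in T-ALL and 4.31 to 8.62 (median 7.46) in BCP-ALL, a difference of 2.14 (SE 0.60, adjusted p = 0.0444), while its relative SYK was 6.15 to 9.58 in BCP-ALL, at most 4.21 in 6 T-ALL lines and 7.98 in Jurkat, a difference of -3.45 (SE 0.74, adjusted p = 0.0125). With the close pairs averaged ZAP70 had an adjusted p of 0.0614.

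Among the adaptors, LAT, THEMIS and DOK2 were higher in T-ALL, and LAT2, BLNK and DOK3 were lower. LAT, the membrane scaffold of the T-cell receptor, was 8.02 to 9.72 (median 9.53) in T-ALL and 4.42 to 6.69 (median 4.77) in BCP-ALL, a difference of 4.05 (SE 0.40, adjusted p = 2.3e-05). LAT2, its B-cell and myeloid relative, was 4.0 to 6.0 (median 4.15) in T-ALL and 9.08 to 11.37 (median 10.83) in BCP-ALL, a difference of -6.19 (SE 0.39, adjusted p = 2.47e-07). CCRF-CEM was the T-ALL line with the most LAT2, and 697 the BCP-ALL line with the most LAT. BLNK, the B-cell linker that stands where LCP2 stands in T cells, was at most 4.55 in T-ALL and 7.32 to 11.29 in BCP-ALL, a difference of -5.51 (SE 0.50, adjusted p = 9.78e-06). LCP2 itself was 8.44 to 9.65 (median 9.08) in T-ALL and 4.22 to 8.29 (median 7.76) in BCP-ALL and did not pass, although the groups did not overlap (difference 2.12, adjusted p = 0.0521). THEMIS, a thymocyte selection protein, was 7.03 to 10.14 against 4.0 to 4.16, a difference of 4.82 (SE 0.45, adjusted p = 1.1e-05), and its relative THEMIS2 had a difference of -1.14 (adjusted p = 0.0624). The docking protein DOK2 was 4.91 to 7.10 (median 6.33) in T-ALL and 4.0 to 4.48 (median 4.13) in BCP-ALL, a difference of 2.07 (adjusted p = 0.00139), and DOK3 was 4.52 to 6.19 (median 4.96) and 9.24 to 10.40 (median 10.15), a difference of -4.86 (adjusted p = 1.07e-07).

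Downstream of the adaptors, the phosphatase-like UBASH3A was at the floor in all 6 BCP-ALL lines and 6.16 to 8.31 in T-ALL, a difference of 3.52 (SE 0.29, adjusted p = 4.24e-06). Its relative UBASH3B had a difference of -1.93 (adjusted p = 0.0975). The Tec kinase BTK, which links the B-cell receptor to phospholipase C, was 7.21 to 9.05 (median 7.97) in BCP-ALL and 4.0 to 4.26 (median 4.01) in T-ALL, a difference of -4.02 (SE 0.27, adjusted p = 4.95e-07). PLCG2 was lower in T-ALL (difference -2.22, adjusted p = 0.021) and PLCG1 did not differ past the threshold (difference 0.75, adjusted p = 0.25). PRKCQ, the protein kinase C of the T-cell synapse, was higher by 1.25 (adjusted p = 0.0355) and DGKA, which removes diacylglycerol, by 1.35 (adjusted p = 0.0233). With the close pairs averaged PLCG2, PRKCQ and DGKA had adjusted p of 0.0635, 0.102 and 0.0649. PRKCB, placed in the list as a B-side gene, was 8.07 to 10.13 in 6 T-ALL lines, 4.27 in HPB-ALL and 4.30 to 8.72 in BCP-ALL, and its difference of 2.84 (adjusted p = 0.0786) did not pass. RASGRP1, SKAP1, SKAP2, VAV1, VAV3 and GRAP had adjusted p of 0.128 to 0.733. GRAP2 was not analysed here, and RASGRP3 and DGKG did not pass the filter on low expression.

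**Figure D3:**
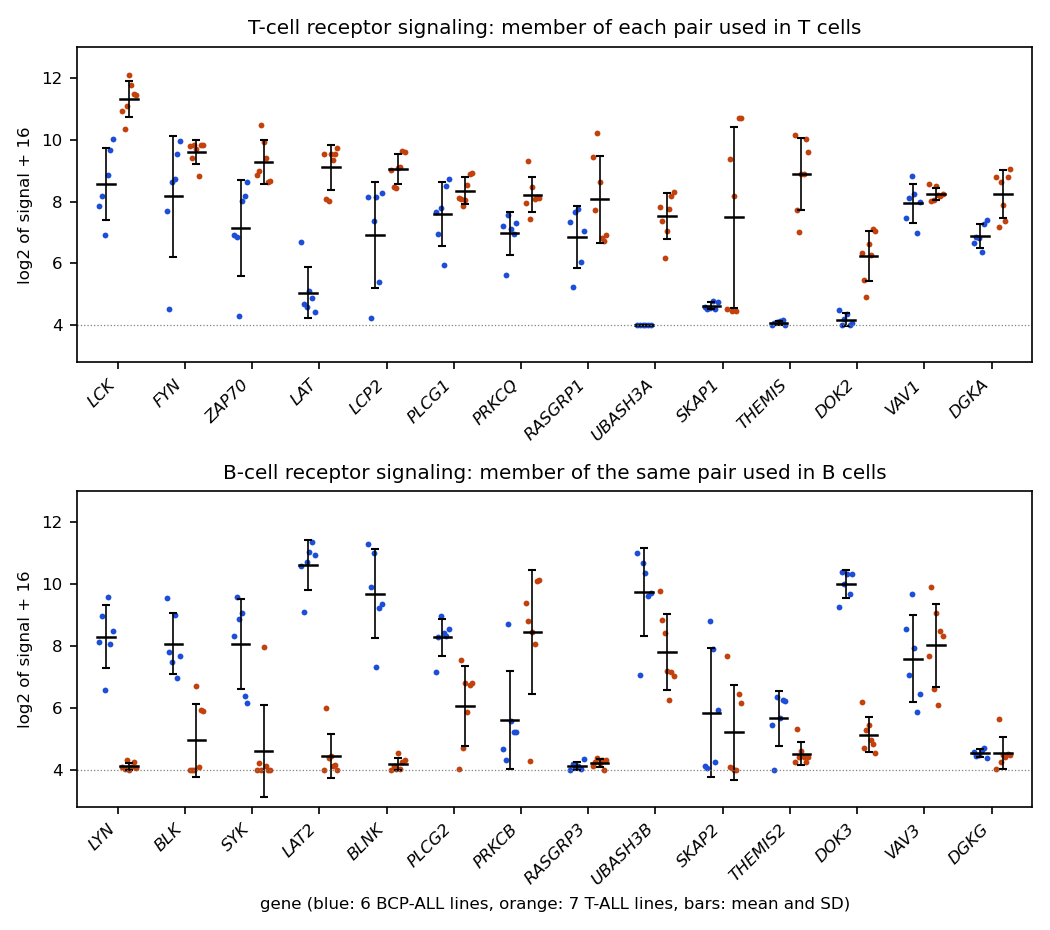
Log2 level in each line (points) with the mean and SD of each group (bars) for the T-side member (upper panel) and the B-side member (lower panel) of 14 pairs in the same order, BCP-ALL in blue and T-ALL in orange. LAT with LAT2 and LCK with LYN run in opposite directions, whereas VAV1 and VAV3 overlap, and PRKCB is above most BCP-ALL lines in 6 T-ALL lines.

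The RefSeq promoter windows of BTK and SYK are shown as examples of windows that hold GAGGAAGT, letters that ETS-family factors such as PU.1 recognize, in kinases described above. They were chosen after the matches were known. Each window holds 250 bases before and 50 bases after a start site, 5′ to 3′ in the direction of the gene, with these letters or their reverse complement in capitals.
BTK, chrX:101390747-101391046, minus strand, GRCh38.p14: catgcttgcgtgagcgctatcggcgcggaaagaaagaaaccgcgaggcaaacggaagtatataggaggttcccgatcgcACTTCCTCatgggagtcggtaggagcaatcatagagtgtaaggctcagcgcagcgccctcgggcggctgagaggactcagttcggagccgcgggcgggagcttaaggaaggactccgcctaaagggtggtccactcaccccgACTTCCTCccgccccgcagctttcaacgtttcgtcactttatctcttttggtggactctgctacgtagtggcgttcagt
SYK, chr9:90801569-90801868, plus strand, GRCh38.p14: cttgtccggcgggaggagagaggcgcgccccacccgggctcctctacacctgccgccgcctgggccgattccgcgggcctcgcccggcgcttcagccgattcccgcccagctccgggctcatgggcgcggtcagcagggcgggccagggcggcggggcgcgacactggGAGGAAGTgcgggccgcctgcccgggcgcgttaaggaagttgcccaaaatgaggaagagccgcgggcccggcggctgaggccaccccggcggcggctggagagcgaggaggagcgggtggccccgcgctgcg
The matches begin 171 and 29 bases before the BTK start and 82 bases before the SYK start. On either strand, these 8 letters occurred in the windows of 3.73% of 10174 genes tested that have a window, of 3.48% of 374 higher genes and of 7.56% of 357 lower genes. A match is a description of the letters and does not show a bound site.

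Cytokine receptors differed in both directions. Of 31 tested genes of the cytokine receptor and JAK-STAT list, 4 were higher (12.9%) and 3 were lower (9.68%) in T-ALL, against 3.96% and 3.67% of all genes. IL7R, a chain of the interleukin-7 receptor, was 10.59 to 11.61 in all 6 BCP-ALL lines and 4.01 to 9.97 (median 4.36) in T-ALL. HPB-ALL was the single T-ALL line near the BCP-ALL range, at 9.97, followed by Jurkat at 6.50, and 4 T-ALL lines were near the floor. The difference was -5.49 (SE 0.82, adjusted p = 0.000964). FLT3, a progenitor receptor tyrosine kinase, was 4.0 to 4.78 in T-ALL and at least 7.33 in every BCP-ALL line but Nalm6 (4.16), a difference of -3.50 (SE 0.63, adjusted p = 0.00403). CSF2RB, the common beta chain of the IL-3, IL-5 and GM-CSF receptors, was near the floor in all T-ALL lines (4.0 to 4.30) and 5.82 to 9.23 in BCP-ALL, a difference of -3.19 (SE 0.40, adjusted p = 0.000189). In the other direction, the IL-2 receptor beta chain IL2RB was 5.35 to 8.80 in T-ALL, highest in ALL-SIL, and at most 4.66 in BCP-ALL, a difference of 2.14 (SE 0.43, adjusted p = 0.00838). The common gamma chain IL2RG was 10.36 to 11.44 (median 10.85) and 8.64 to 10.25 (median 9.63), a difference of 1.22 (adjusted p = 0.0218), STAT3 was higher by 1.42 (adjusted p = 0.0185) and the interferon receptor chain IFNAR1 by 0.77 (adjusted p = 0.0436), which had an adjusted p of 0.16 with the close pairs averaged. FAS, the death receptor, was the only one of 31 TNF receptor and NF-kappaB genes that passed, at 6.80 to 8.02 (median 7.23) in T-ALL and 4.05 to 7.05 (median 5.07) in BCP-ALL, a difference of 2.19 (SE 0.41, adjusted p = 0.00534).

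Of the genes that restrain growth factor signaling, DUSP1 and SPRY2 were lower and RASA2 was higher in T-ALL. Most of their relatives in the list did not pass, among them SPRY1, SPRED1, SPRED2, DUSP2, DUSP4, DUSP5, DUSP6, DUSP10, DUSP16, RASA3 and RASAL3. DUSP1, the phosphatase that inactivates MAP kinases, was 5.20 to 8.01 (median 6.44) in T-ALL and 10.20 to 11.91 (median 10.96) in BCP-ALL, with no overlap and a difference of -4.65 (SE 0.48, adjusted p = 3.03e-05). SPRY2, an inhibitor of RAS signaling downstream of receptor tyrosine kinases, was 4.22 to 6.97 (median 5.99) and 7.95 to 9.91 (median 8.63), a difference of -3.23 (SE 0.51, adjusted p = 0.00138). MAPK13, a p38 kinase, was at most 4.71 in 6 T-ALL lines and 7.48 in CCRF-CEM against 6.96 to 8.14 in BCP-ALL, a difference of -2.40 (adjusted p = 0.00546), and the stress kinase MAP3K5 was lower, with a difference of -2.32 (adjusted p = 0.00939). RASA2, a GTPase-activating protein that turns RAS off, was the only member of the list that was higher, at 8.67 to 9.64 (median 9.31) in T-ALL and 5.28 to 8.24 (median 7.42) in BCP-ALL, a difference of 2.23 (SE 0.47, adjusted p = 0.0103). In all, 1 of 38 RAS and MAP kinase genes was higher (2.63%) and 4 were lower (10.53%). The list's median difference was 0.06.

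In the PI3K list, 2 of 31 genes were higher (6.45%) and 5 were lower (16.13%), with a median of -0.30. GAB1, a docking adaptor for PI3K, was at most 5.22 in T-ALL and 5.06 to 8.63 in BCP-ALL, where Nalm16 and Nalm30 were the lowest at 5.06 and 5.53 in that order, a difference of -2.69 (SE 0.54, adjusted p = 0.00802). PHLPP1, a phosphatase of AKT, was 6.48 to 7.92 (median 6.79) in T-ALL and 8.12 to 10.33 (median 9.29) in BCP-ALL, a difference of -2.21 (SE 0.38, adjusted p = 0.00259). PIK3CD, the leukocyte catalytic subunit, was 9.23 to 9.56 in BCP-ALL and lower in all T-ALL lines but ALL-SIL (9.75), with a difference of -1.57 (adjusted p = 0.0214), whereas the broadly expressed subunit PIK3CB was higher by 0.93 (adjusted p = 0.0472). INPP4A, a phosphoinositide phosphatase, was higher in every T-ALL line (7.90 to 9.11 against 6.69 to 7.64, difference 1.11, SE 0.21, adjusted p = 0.00625). The insulin receptor INSR and its substrate IRS2 were lower, with differences of -1.50 (adjusted p = 0.0428) and -2.53 (adjusted p = 0.0332). PIK3CD, PIK3CB, INSR and IRS2 did not pass with the close pairs averaged (adjusted p 0.0555 to 0.125).

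G protein and cyclic AMP genes differed in both directions. GNAQ, the alpha subunit that activates phospholipase C beta, was 9.21 to 10.37 (median 10.23) in T-ALL and 4.19 to 8.90 (median 7.41) in BCP-ALL, a difference of 2.91 (SE 0.65, adjusted p = 0.0147), while the gamma subunit GNG7 was 4.03 to 5.24 (median 4.79) and 7.72 to 9.37 (median 8.29), a difference of -3.78 (SE 0.29, adjusted p = 2.05e-06) and the inhibitory alpha subunit GNAI1 was lower, with a difference of -2.93 (adjusted p = 0.00273). AKAP12, a scaffold of protein kinase A, was at most 4.13 in 6 T-ALL lines, 6.43 in Molt4 and 4.97 to 10.63 in BCP-ALL, a difference of -4.09 (SE 0.77, adjusted p = 0.00534). CCR7, the lymph node homing receptor, was 5.20 to 8.21 (median 7.48) in T-ALL and 4.0 to 5.62 (median 4.67) in BCP-ALL, a difference of 2.24 (adjusted p = 0.0156). The other 3 higher genes were RGS10, which ends G protein signals (difference 1.21, adjusted p = 0.0219), the adenylyl cyclase ADCY7 (difference 1.88, adjusted p = 0.0247) and the phosphodiesterase PDE3B (difference 1.74, adjusted p = 0.0498). The list held 39 tested genes, of which 5 were higher (12.82%) and 3 were lower (7.69%). With the close pairs averaged, RGS10 alone of the 5 higher genes passed (adjusted p 0.0348), and without Nalm16 and Nalm30 the 5 had adjusted p of 0.0548 to 0.213.

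Notch pathway genes differed in both directions. Of 42 tested Notch, Wnt and TGF-beta genes, 5 were higher (11.9%) and 6 were lower (14.29%) in T-ALL. HES1, the repressor that Notch switches on, was 7.30 to 9.94 (median 8.21) in T-ALL and 4.0 to 4.18 (median 4.07) in BCP-ALL, a difference of 4.28 (SE 0.36, adjusted p = 4.24e-06). Every BCP-ALL line was at the floor, and CCRF-CEM and ALL-SIL were the highest T-ALL lines. The receptors NOTCH1 and NOTCH3 were 8.06 to 9.81 and 5.43 to 8.42 in T-ALL against 5.92 to 8.30 and 4.32 to 6.01 in BCP-ALL, with overlap in both genes and differences of 1.93 (adjusted p = 0.014) and 2.32 (adjusted p = 0.0112). NRARP, a feedback inhibitor that Notch also induces in many cells, was lower in every T-ALL line (4.69 to 5.63 against 6.08 to 6.98, difference -1.61, SE 0.18, adjusted p = 8.28e-05), and 5 of 7 T-ALL lines were near the floor. DTX4, a Deltex family member, was lower, with a difference of -2.24 (adjusted p = 0.0259). Without Nalm16 and Nalm30, NOTCH1, NOTCH3 and DTX4 had adjusted p of 0.0777, 0.0562 and 0.0894. The T-ALL lines also had the co-repressor TLE3 (7.68 to 8.26 against 4.04 to 5.74, difference 3.05, SE 0.27, adjusted p = 7.97e-06) and the Wnt receptor FZD6, which was at the floor in all BCP-ALL lines (7.06 to 8.63 against 4.0 to 4.27, difference 4.08, SE 0.23, adjusted p = 1.04e-07), whereas TLE4 was lower, with a difference of -2.76 (adjusted p = 0.0423). With the close pairs averaged DTX4 and TLE4 had adjusted p of 0.103 and 0.139. In the TGF-beta branch, the co-receptor endoglin (ENG) was 4.0 to 4.52 (median 4.21) in T-ALL and 6.17 to 8.65 (median 7.30) in BCP-ALL, a difference of -3.19 (SE 0.33, adjusted p = 2.94e-05), the receptor TGFBR2 was lower, with a difference of -1.43 (adjusted p = 0.0071), and the target ID3, an inhibitor of E proteins, was 6.24 to 9.23 (median 7.58) and 10.05 to 11.47 (median 10.68), a difference of -2.92 (SE 0.42, adjusted p = 0.000688).

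The promoter window of HES1 is shown as an example of a match, also chosen after the matches were known. The capitals mark GTGGGAA, the core letters that RBPJ, the DNA-binding partner of Notch, recognizes.
HES1, chr3:194135898-194136197, plus strand, GRCh38.p14: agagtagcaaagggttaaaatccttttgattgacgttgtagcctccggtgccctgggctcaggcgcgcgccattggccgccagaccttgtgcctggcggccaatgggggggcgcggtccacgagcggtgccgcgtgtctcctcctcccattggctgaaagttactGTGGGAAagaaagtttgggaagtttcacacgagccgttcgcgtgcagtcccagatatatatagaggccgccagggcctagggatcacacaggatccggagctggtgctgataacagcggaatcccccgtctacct
The match begins 85 bases before the start. On either strand, these 7 letters occurred in the windows of 7.92% of 10174 genes, of 12.83% of the higher and of 9.24% of the lower genes. In all, 9 motifs were searched on both strands over the same genes, with no test, and for 6 of them the share was above that of all genes among both the higher and the lower genes. The TCF motif was below it in both. The EBF palindrome was in the windows of 1.828% of all, 2.406% of the higher and 3.922% of the lower genes. The octamer, ATGCAAAT, was in the windows of 1.838% of all, 2.139% of the higher and 4.202% of the lower genes. The RUNX core, TGTGGT, was in the windows of 13.65% of all, 17.91% of the higher and 14.85% of the lower genes. A gene can have several windows, and the higher and lower genes had 584 windows each for 374 and 357 genes, against 14833 for 10174 genes. The GATA core, AGATAA, was in the windows of 8.03% of all, 10.96% of the higher and 8.964% of the lower genes. The E-box of E proteins, CAGGTG, was in the windows of 23.98% of all, 30.75% of the higher and 29.13% of the lower genes. The TCF motif, CTTTGAT, was in the windows of 2.133% of all, 1.872% of the higher and 1.401% of the lower genes. The reversed CCAAT box, ATTGG, was in the windows of 43.29% of all, 39.04% of the higher and 44.54% of the lower genes.

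Adhesion genes were more often higher than lower. Of 42 tested genes, 8 were higher (19.05%) and 3 were lower (7.14%), and the list's median difference of 0.65 was above the 0.03 of all genes. ITGAL, the alpha chain of the leukocyte integrin LFA-1, was 5.95 to 11.10 (median 8.31) in T-ALL and 4.21 to 5.04 (median 4.35) in BCP-ALL, a difference of 3.54 (SE 0.63, adjusted p = 0.00371). ICAM3, one of its ligands, was 8.04 to 9.85 (median 9.51) and 4.16 to 6.86 (median 6.4), a difference of 3.50 (SE 0.49, adjusted p = 0.000626). JAM3, a junctional adhesion molecule, was at the floor in all 6 BCP-ALL lines and 6.59 to 11.25 (median 8.65) in T-ALL, a difference of 4.83 (SE 0.65, adjusted p = 0.000425). The T-ALL lines were widely spread in JAM3, and none overlapped BCP-ALL. The remaining higher genes were the selectin ligand SELPLG (difference 1.5, adjusted p = 0.00145), the tetraspanin CD82 (difference 2.26, adjusted p = 0.00747), the semaphorin SEMA4D (difference 1.83, adjusted p = 0.00593), the phagocytosis inhibitor CD47 (difference 0.78, adjusted p = 0.0293) and TSPAN7.

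Tetraspanins, membrane proteins that organize integrins and receptors into patches, differed in both directions. TSPAN7 was 7.16 to 11.69 (median 10.77) in T-ALL and 4.08 to 6.92 (median 5.47) in BCP-ALL, a difference of 4.60 (SE 0.75, adjusted p = 0.00183). CD9 ran the other way, at 4.25 to 5.86 (median 4.63) in T-ALL and 8.15 to 11.64 (median 9.78) in BCP-ALL, a difference of -5.17 (SE 0.53, adjusted p = 3.16e-05), as did TSPAN14, a partner of the protease ADAM10 (5.38 to 7.61 against 8.06 to 8.83, difference -2.19, SE 0.30, adjusted p = 0.000506). ESAM, an endothelial and progenitor adhesion molecule, was lower, with a difference of -1.65 (adjusted p = 0.0441). With the close pairs averaged CD47 and ESAM did not pass (adjusted p 0.12 and 0.161).

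Regulators of the actin cytoskeleton were also more often higher than lower. Of 50 tested genes, 7 were higher (14%) and 2 were lower (4.0%). RHOH, a GTPase-deficient small G protein of blood cells needed for T-cell receptor signaling, was 9.03 to 10.75 (median 9.76) in T-ALL and 5.61 to 8.70 (median 6.92) in BCP-ALL, a difference of 2.78 (SE 0.43, adjusted p = 0.00121). MYO1G, a class I myosin of leukocytes, was 7.54 to 10.08 (median 8.30) and 4.57 to 7.52 (median 6.22), a difference of 2.69 (SE 0.54, adjusted p = 0.00826). The Rac activator DOCK2 was higher by 1.12 (adjusted p = 0.00315), and the exchange factors ARHGEF3, ARHGEF6 and ARHGEF1 and the GTPase RHOF by 2.38 (adjusted p = 0.0027), 1.56 (adjusted p = 0.0355), 0.76 (adjusted p = 0.0308) and 1.34 (adjusted p = 0.0201) in that order. ARHGEF12, an exchange factor that couples G proteins to RhoA, was near the floor in 6 T-ALL lines, 7.87 in Jurkat and 5.59 to 8.54 in BCP-ALL, a difference of -2.91 (SE 0.69, adjusted p = 0.0205). Of its 13 probe sets, 8 had this direction and 1 passed. The Rac GTPase-activating protein ARHGAP25 was 4.55 to 6.34 (median 5.58) and 6.56 to 7.84 (median 7.21), a difference of -1.72 (SE 0.32, adjusted p = 0.00483). ARHGEF6, ARHGEF1 and RHOF did not pass with the close pairs averaged (adjusted p 0.0732 to 0.117).

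Some genes outside the lists separated the lineages without overlap and are given here after their values were seen. The iron exporter ferroportin (SLC40A1) was at the floor in BCP-ALL (4.0 to 4.32) and 7.07 to 8.77 in T-ALL, a difference of 3.96 (SE 0.23, adjusted p = 1.41e-07). AQP3, a channel for water and glycerol, was 7.47 to 11.19 (median 10.30) and 4.36 to 6.35 (median 5.10), a difference of 4.78 (SE 0.51, adjusted p = 4.24e-05), and the adaptor FYB1, which links T-cell receptor signals to integrins, was 7.71 to 9.34 (median 8.82) and 4.0 to 4.21 (median 4.0), a difference of 4.63 (SE 0.24, adjusted p = 3.75e-08). EPHB6, a kinase-inactive ephrin receptor, was higher by 3.75 (SE 0.44, adjusted p = 0.000109) and the membrane raft protein MAL by 4.67 (SE 0.94, adjusted p = 0.00826). ALDH1A2, which makes retinoic acid, was higher by 4.49 (SE 1.05, adjusted p = 0.0194), and its adjusted p was 0.0849 with the close pairs averaged. In ALDH1A2, 2 T-ALL lines were near the floor, and ALL-SIL (4.23) was only 0.02 log2 units above Nalm30 (4.21), the highest BCP-ALL line. Another 5 such genes were lower in T-ALL. CHST15, a sulfotransferase for chondroitin sulfate, was 4.0 to 4.31 (median 4.17) in T-ALL and 8.41 to 9.96 (median 9.43) in BCP-ALL, a difference of -5.16 (SE 0.23, adjusted p = 5.04e-09). The laminin chain LAMC1 was 4.03 to 4.40 (median 4.27) and 7.42 to 9.25 (median 8.07), a difference of -3.85 (SE 0.26, adjusted p = 4.25e-07), and the junction protein plakoglobin (JUP) was 4.0 to 6.04 (median 5.51) and 8.88 to 10.19 (median 9.62), a difference of -4.29 (SE 0.37, adjusted p = 5.83e-06). MYO10, a myosin of filopodia, was at the floor in T-ALL and 6.83 to 9.28 in BCP-ALL, a difference of -3.96 (adjusted p = 4.6e-06), and NPY, the gene of neuropeptide Y, was 4.01 to 4.98 (median 4.10) and 7.44 to 9.68 (median 8.38), a difference of -4.20 (adjusted p = 7.56e-07).

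Metabolic genes passed about as often as all genes did. In the list of glucose and central carbon metabolism 3 of 40 genes were higher (7.5%) and 2 were lower (5.0%), in lipid metabolism 2 of 39 (5.13%) and 1 (2.56%), in folate and nucleotide metabolism 1 of 38 (2.63%) and 1, and in amino acid and redox metabolism 1 of 49 (2.04%) and 2 (4.08%). The gene with the lowest adjusted p in the 4 lists was ADA, which deaminates adenosine and deoxyadenosine and is known for its high activity in thymocytes. ADA was 11.02 to 12.12 (median 11.33) in T-ALL and 8.36 to 10.30 (median 9.58) in BCP-ALL, a difference of 2.03 (SE 0.34, adjusted p = 0.0024). The groups did not overlap, and Nalm16, Nalm30 and Nalm6 were the lowest 3 lines. FPGS, which adds glutamates to folates and to methotrexate, was 7.42 to 8.57 (median 8.20) in T-ALL and 8.89 to 9.25 (median 8.96) in BCP-ALL, a difference of -0.95 (SE 0.20, adjusted p = 0.0102). P12-ICHIKAWA and TALL-1 had the least FPGS, and Jurkat, the highest T-ALL line, was below every BCP-ALL line.

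In glycolysis, the enolase ENO2 was 7.31 to 8.48 (median 8.09) in T-ALL and 4.21 to 7.05 (median 6.02) in BCP-ALL, a difference of 2.18 (SE 0.38, adjusted p = 0.00318). The difference in PGK1, which acts upstream of it, was small (difference 0.60, adjusted p = 0.0257). The liver-type phosphofructokinase PFKL was lower, with a difference of -1.19 (adjusted p = 0.0219) , as was the cytosolic isocitrate dehydrogenase IDH1, at -1.20 (adjusted p = 0.0156). PDK3, a kinase that turns pyruvate dehydrogenase off, was higher by 0.88 (adjusted p = 0.0291) on its brightest probe set, and differed by -0.43 on its most variable one. Of these 5 genes only ENO2 passed with the close pairs averaged (adjusted p 0.00461). SMPD3, a neutral sphingomyelinase that makes ceramide, was at the floor in BCP-ALL (4.0 to 4.27), 5.20 to 5.56 in 3 T-ALL lines and 8.52 to 9.19 in the other 4, a difference of 3.21 (SE 0.71, adjusted p = 0.0139), and its adjusted p was 0.0616 without Nalm16 and Nalm30. ALOX5AP, which serves leukotriene synthesis, was higher by 2.02 (adjusted p = 0.0335) and the fatty acid synthase FASN lower, with a difference of -0.86 (adjusted p = 0.0411). Among redox genes, the peroxiredoxin PRDX1 was 10.98 to 12.26 (median 11.42) in T-ALL and 12.32 to 12.64 (median 12.55) in BCP-ALL, a difference of -0.94 (SE 0.20, adjusted p = 0.0107), the glutathione peroxidase GPX1 was lower, with a difference of -1.56 (adjusted p = 0.0444), and the glutathione transferase GSTM3 higher by 2.38 (adjusted p = 0.0493). ALOX5AP, FASN, PRDX1, GPX1 and GSTM3 had adjusted p of 0.0535 to 0.17 with the close pairs averaged.

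Store-operated calcium entry, in which STIM proteins of the endoplasmic reticulum open ORAI channels of the plasma membrane, held relatives that differed in opposite directions. STIM2 was 6.42 to 6.58 (median 6.52) in T-ALL and 7.77 to 9.23 (median 8.63) in BCP-ALL, a difference of -2.12 (SE 0.20, adjusted p = 1.66e-05). The 7 T-ALL lines had an SD of 0.06 in STIM2, and every BCP-ALL line lay above them. Whether so even a level is expression or background of the probe set was not tested. STIM1 ran the other way, at 6.76 to 7.65 (median 7.44) in T-ALL and 5.13 to 7.16 (median 5.87) in BCP-ALL, with overlap and a difference of 1.32 (SE 0.33, adjusted p = 0.027). ORAI3 was 4.94 to 7.82 in T-ALL, where HPB-ALL was the highest, and 7.35 to 8.90 in BCP-ALL, a difference of -2.49 (SE 0.44, adjusted p = 0.00372). The calcium-activated kinase CAMK4 was 5.54 to 8.97 (median 6.45) and 4.0 to 5.20 (median 4.13), a difference of 2.62 (SE 0.50, adjusted p = 0.00546), the potassium channel KCNK5 was higher by 2.29 (adjusted p = 0.00261) and the ATP-gated channel P2RX5 by 2.8 (adjusted p = 0.0124), and the cation channel TRPM2 was lower, with a difference of -1.23 (adjusted p = 0.0475). In all, 4 of 41 calcium and ion channel genes were higher (9.76%) and 3 were lower (7.32%), and P2RX5 and TRPM2 did not pass with the close pairs averaged (adjusted p 0.0635 and 0.116).

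Chromatin genes as a class passed about as often as all genes. Of 64 histone and DNA modifying enzymes, 3 were higher (4.69%) and 3 were lower (4.69%), and of 53 remodellers and architectural proteins 1 was higher (1.89%) and 1 was lower (1.89%). The lower one, CTBP2, a co-repressor that recruits histone-modifying enzymes, had the largest difference in the 2 lists. CTBP2 was 4.79 to 6.21 (median 5.18) in T-ALL and 8.50 to 10.27 (median 9.68) in BCP-ALL, with no overlap and a difference of -4.12 (SE 0.35, adjusted p = 4.24e-06). Of the class II histone deacetylases in the list, HDAC5 and HDAC9 were lower, HDAC4 was higher, and HDAC6 and HDAC7 did not pass. HDAC9 was 4.15 to 6.18 (median 5.07) in T-ALL and 6.33 to 7.69 (median 7.0) in BCP-ALL, a difference of -1.81 (SE 0.36, adjusted p = 0.0073) and HDAC5 was 4.47 to 7.19 (median 5.30) and 7.06 to 8.50 (median 7.68), a difference of -2.06 (SE 0.44, adjusted p = 0.0125), whereas HDAC4 was 6.87 to 9.22 (median 7.90) and 5.23 to 7.33 (median 6.22), a difference of 1.76 (SE 0.40, adjusted p = 0.016). HDAC1, the class I enzyme, was higher by 0.77 (adjusted p = 0.0201). TET1, which oxidizes methylcytosine, was 5.91 to 7.63 in T-ALL and at most 5.29 in 5 BCP-ALL lines, with REH at 6.80, a difference of 2.01 (SE 0.41, adjusted p = 0.00838), and its adjusted p was 0.0516 without Nalm16 and Nalm30. The acetyltransferase CREBBP, a gene often mutated in relapsed ALL, was 7.62 to 8.57 (median 8.18) in T-ALL and 8.73 to 9.46 (median 8.97) in BCP-ALL, with no overlap, a difference of -0.85 (SE 0.17, adjusted p = 0.00881), and MTA3, a subunit of the NuRD complex, was 7.49 to 8.11 (median 7.70) and 6.42 to 7.20 (median 6.76), a difference of 0.90 (SE 0.18, adjusted p = 0.00685). HDAC1, HDAC4 and HDAC5 did not pass with the close pairs averaged (adjusted p 0.0677 to 0.0706).

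Lymphoid transcription factors passed in both directions, 6 of 59 higher (10.17%) and 11 lower (18.64%). Besides TOX, the higher genes were RUNX3, a factor of cytotoxic T cells (5.96 to 10.67 in T-ALL against 4.0 to 5.22, difference 4.01, SE 0.66, adjusted p = 0.00185), the T-lineage factors GATA3 (9.11 to 11.42 against 4.49 to 7.98, difference 3.98, SE 0.56, adjusted p = 0.000587) and BCL11B (difference 3.64, adjusted p = 0.000963), and ZEB1 (difference 2.47, adjusted p = 0.00943) and ZBTB16 (difference 0.83, adjusted p = 0.0429). ZEB2 ran against its relative ZEB1, with a difference of -2.77 (adjusted p = 0.000957). The E protein TCF4 was 4.09 to 7.50 (median 4.94) in T-ALL and 7.59 to 11.43 (median 9.77) in BCP-ALL, a difference of -4.18 (SE 0.70, adjusted p = 0.00222), and FOXO1, which drives RAG and IL7R expression in early B cells, was near the floor in all 7 T-ALL lines (4.01 to 4.81 against 7.55 to 9.55, difference -4.01, SE 0.29, adjusted p = 9.15e-07). MEF2D, the relative of MEF2C, was lower, with a difference of -1.73 (adjusted p = 8.57e-05). IRF4, XBP1 and BCL6 were lower, with differences of -3.91 (adjusted p = 0.00068), -3.86 (adjusted p = 0.0235) and -3.00 (adjusted p = 0.016), and those of the progenitor factors ERG, LYL1 and SPI1 were -3.82 (adjusted p = 0.000917), -3.20 (adjusted p = 0.000979) and -2.02 (adjusted p = 0.00162). ZBTB16, XBP1 and BCL6 did not pass with the close pairs averaged (adjusted p 0.0679 to 0.152).

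Of 41 tested genes of the apoptosis and cell cycle list, 0 were higher in T-ALL by limma and 4 were lower (9.76%). At an unadjusted p under 0.05, 4 were higher. The shares over all genes were 3.96% and 3.67%, at which few of 41 genes would be called in either direction. The list's median difference was 0.09. CDKN1A, the p21 inhibitor of cyclin-dependent kinases, was 4.0 to 6.12 (median 4.58) in T-ALL and 8.13 to 10.24 (median 9.0) in BCP-ALL. HPB-ALL was the highest T-ALL line and stayed 2.01 log2 units under the lowest BCP-ALL line, Nalm16, and the difference was -4.35 (SE 0.40, adjusted p = 9.67e-06). BCL2, the anti-apoptotic protein, was 7.15 to 8.96 in T-ALL, highest in ALL-SIL, and 7.84 to 10.44 in BCP-ALL, a difference of -1.74 (SE 0.40, adjusted p = 0.0166), its relative BCL2L2 was lower, with a difference of -1.51 (adjusted p = 0.00336), as was E2F2, at -0.95 (adjusted p = 0.0112). BCL2 and E2F2 had adjusted p of 0.0754 and 0.0514 with the close pairs averaged.

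Antigen presentation genes were lower in T-ALL, 14 of 30 (46.67%), and 2 were higher (6.67%). The 14 held 8 class II genes, the protease CTSS, the co-stimulator ICOSLG and the class I genes HLA-B, HLA-C, HLA-E and HLA-F, which were lower, with differences of -1.53, -1.31, -1.38 and -1.41 on the log2 scale. HLA genes have near-identical relatives whose transcripts can share probes, so the member behind each value is uncertain. HLA-DRA was at the floor in all T-ALL lines (4.0 to 4.14) and 9.58 to 12.17 in BCP-ALL, a difference of -6.58 (SE 0.35, adjusted p = 4.05e-08), and HLA-DRB1 was 7.19 to 7.80 and 12.96 to 14.89, a difference of -6.56 (SE 0.26, adjusted p = 1.67e-09). HLA-DPA1 was 6.13 in Nalm16, within the T-ALL range of 5.51 to 6.22, and at least 12.52 in the other 5 BCP-ALL lines, a difference of -6.42 (SE 1.09, adjusted p = 0.00244). The higher genes were LGMN, a lysosomal protease (6.88 to 9.07 against 4.0 to 6.09, difference 3.42, SE 0.46, adjusted p = 0.000395), and CD1C (difference 3.33, adjusted p = 0.0436). The 4 class I genes, CTSS, ICOSLG and CD1C did not pass with the close pairs averaged (adjusted p 0.056 to 0.147).

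**Figure D4:**
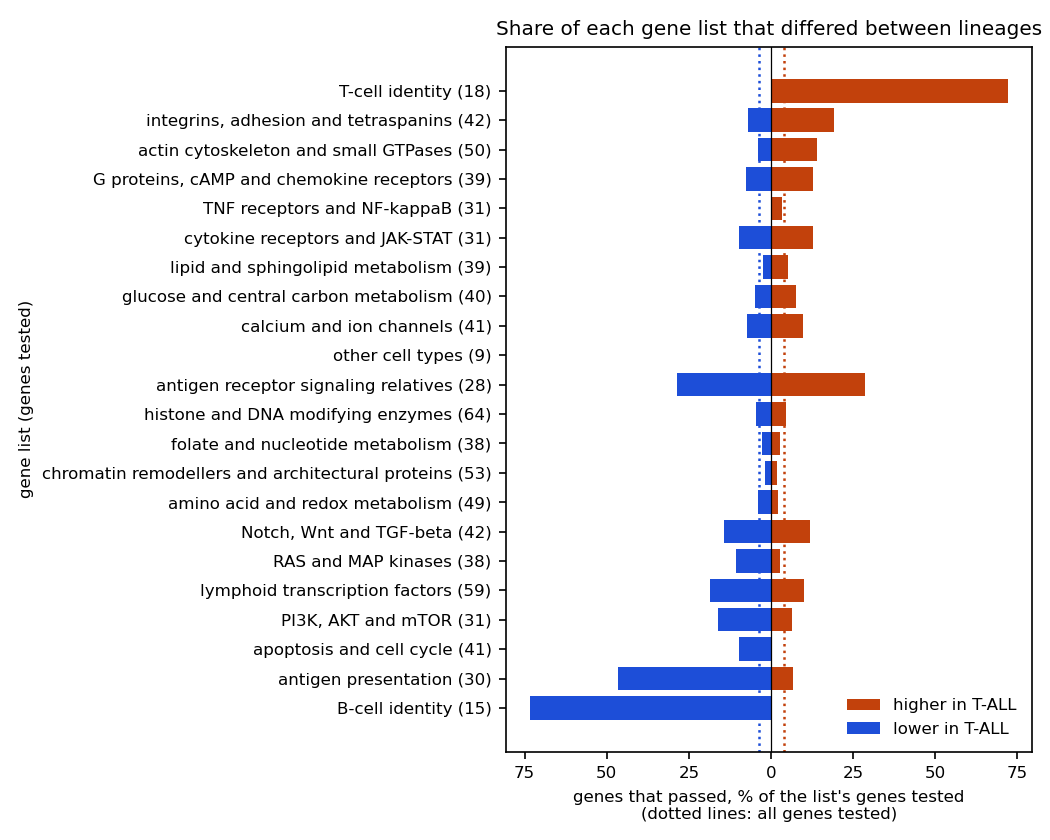
Share of each list's tested genes that were higher (orange, to the right) or lower (blue, to the left) in T-ALL, in percent, with the number tested in brackets and dotted lines at the shares over all genes (3.96% and 3.67%). Antigen receptor relatives, a list built from T-side and B-side members, extend equally to both sides at 28.57%. Adhesion and actin genes extend further to the right, and the metabolism and chromatin lists stay near the dotted lines.

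**Figure D5:**
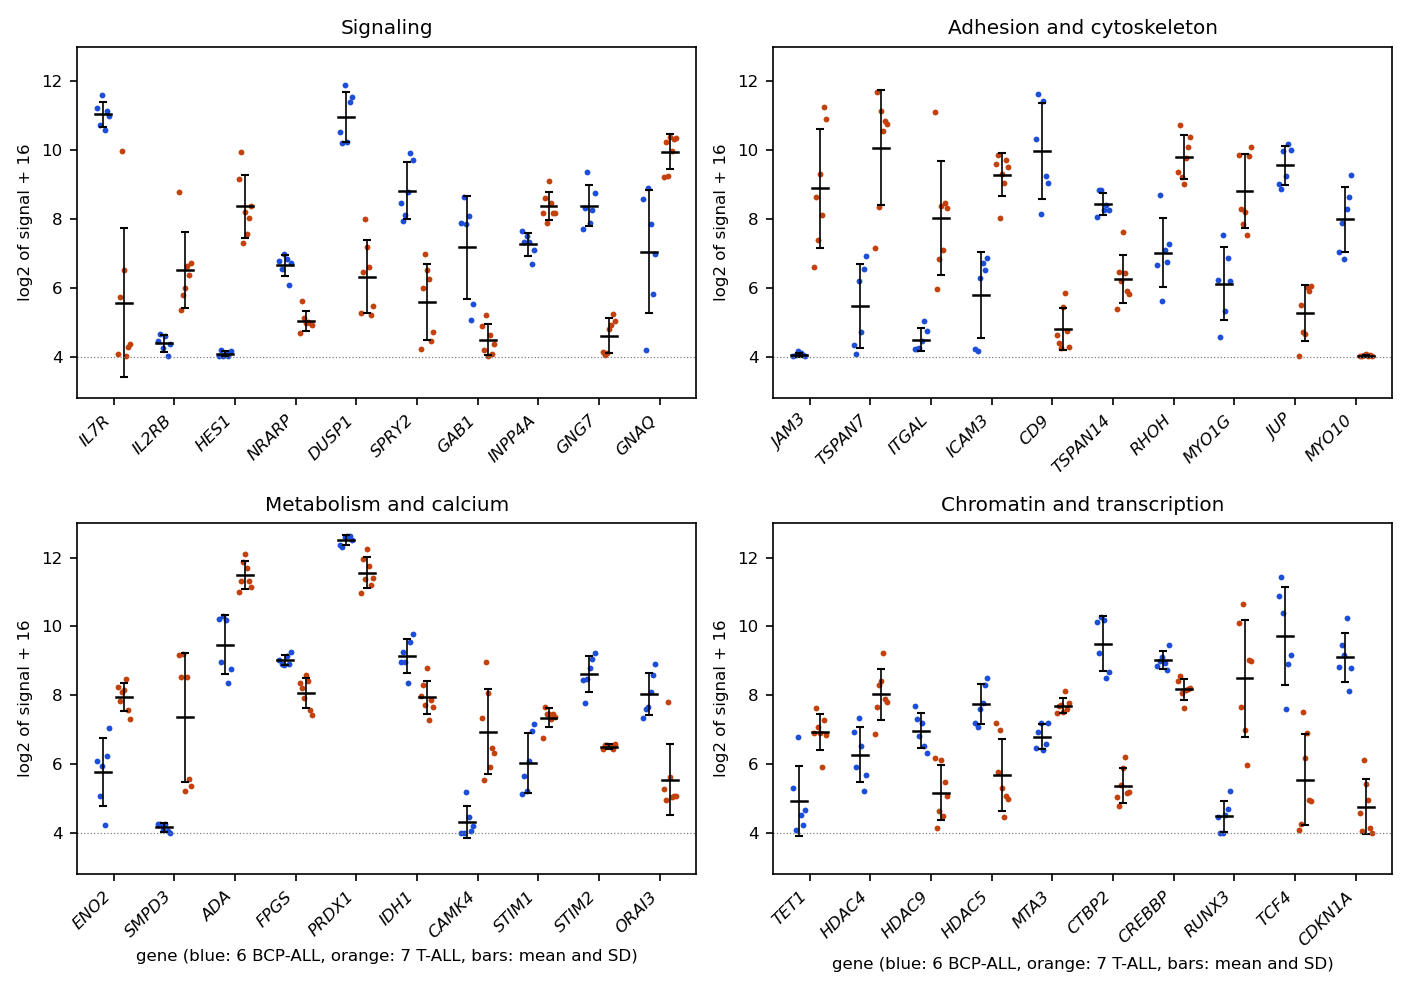
Log2 level in each line (points) with the mean and SD of each group (bars) for genes named above, in 4 panels by function, BCP-ALL in blue and T-ALL in orange, with the floor of 4 dotted. STIM2 and CTBP2 leave a gap between the groups, and IL7R shows HPB-ALL at 9.97, far above the other T-ALL lines.

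The lines differed in how often they reached the range of the other lineage. Over the 497 genes higher in T-ALL, REH reached the range of the T-ALL lines for 146 (29.38%), the most of any BCP-ALL line, and Nalm16 for 28 (5.63%), the fewest. The other 4 BCP-ALL lines did so for 55 to 90 genes. A low count does not make a line typical of its lineage. Nalm16 and Nalm30 had r of only 0.805 to 0.879 to the other BCP-ALL lines. Nalm16 also had the lowest upper quartile of all arrays (6.54), and whether its low signal bears on its count was not tested. Over the 461 genes lower in T-ALL, CCRF-CEM reached the BCP-ALL range for 113 (24.51%) and Jurkat for 102 (22.13%), whereas P12-ICHIKAWA and TALL-1 did so for 38 and 36. MEF2C and MAPK13 in CCRF-CEM, SYK and ARHGEF12 in Jurkat and AIF1 in REH are among the named examples of a level near the other lineage's. The genes were called from these same lines, so these counts describe the lines and carry no test, and P12-ICHIKAWA and TALL-1, which are nearly the same array, weigh on the calls together.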

How the data were processed

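Gene expression was measured in total RNA of 13 untreated ALL lines on HG-U133 Plus 2.0 arrays. The authors deposited log2 values made with the iterPLIER+16 algorithm with Affymetrix Expression Console (version not given in the sources used here), and the scaling between arrays is not stated. Array medians were 5.05 to 5.37. The labels give phenol-chloroform extraction of RNA and the study's methods a spin-column kit.

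Of 42450 probe sets, 38079 were named with 1 current symbol and 46 with the annotated one, and 1742 with several symbols and 2583 with none were left out. Each of 18568 genes took its probe set with the highest mean, and 12560 genes above the array median in at least 3 lines were tested. T-ALL was set against BCP-ALL over all 13 lines with limma 3.58.1 (lmFit and eBayes, R 4.3.3), with Benjamini-Hochberg adjustment over all 12560 genes and a threshold of 0.05. Adjusted p-values are from this fit unless another setting is named beside them, where the same test was run under that setting. Each line has 1 array, so p-values measure the spread between lines, whose number limits the precision. In the main fit the lines of each close pair counted as separate lines.

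The named genes are CD3D, CD3E, PAX5 and CD74, the 12 largest differences in each direction, all members of the receptor signaling pairs, and the 2 largest in each direction of each other list. A further 29 genes, and list members beyond these, were named after their values were seen. Of 83 named genes that passed and had over 1 probe set, 15 had another probe set of opposite sign, of which 0 passed. Among the 15 were ARHGEF12 (8 of 13 probe sets in the direction given), PDK3 (2 of 5) and CREBBP (2 of 4). PHLPP1, NOTCH3 and GSTM3 had 1 of 2. The members and lists were chosen with earlier results of these data known. Promoter windows came from RefSeq (GRCh38.p14) and matched 10174 genes by symbol. In 1 simulated set of 12560 genes, 100 were changed by 1 log2 unit and another 100 by 2. The fit recovered 40 and 87 of them in that order, with 9 false calls in the whole set. The simulated noise was normal, independent between lines and without a floor. The real arrays hold close pairs and values at the floor, so these rates need not hold for them. Alternatives covered scaling, filter, probe set, variance model, array weights, close pairs and each line left out. Tables and figures used Python 3.11.15 with pandas 2.3.3 and matplotlib 3.10.9.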

Additional observations from a re-analysis of the deposited data

Results flagged for a closer look

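In 276 groups of named genes, each the 6 BCP-ALL or the 7 T-ALL lines, 49 held a line that stood apart from the other lines of its lineage by Dixon's criterion, where about 1 group in 20 would be flagged by chance. The values are log2 levels, each followed by the level of the nearest other line of the lineage.

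A line stood above the rest of its lineage in T-ALL for CD24 in Molt4 (5.96, next 5.01), EBF1 in Jurkat (5.00, next 4.46), LAT2 in CCRF-CEM (6.0, next 4.45), MEF2C in CCRF-CEM (8.57, next 4.32), SYK in Jurkat (7.98, next 4.21), THEMIS2 in CCRF-CEM (5.31, next 4.62), DGKG in CCRF-CEM (5.63, next 4.50), IL2RB in ALL-SIL (8.80, next 6.71), IL7R in HPB-ALL (9.97, next 6.50), AKAP12 in Molt4 (6.43, next 4.13), ARHGEF12 in Jurkat (7.87, next 4.15), BCL2 in ALL-SIL (8.96, next 7.68), ORAI3 in HPB-ALL (7.82, next 5.63), PIK3CD in ALL-SIL (9.75, next 8.08) and MAPK13 in CCRF-CEM (7.48, next 4.71). The same held in BCP-ALL for FAT1 in 697 (9.65, next 4.25), LAT in 697 (6.69, next 5.11), PRKCB in REH (8.72, next 5.58), LGMN in REH (6.09, next 4.52) and NOTCH3 in 697 (6.01, next 4.65). CCRF-CEM is the line named most often among these T-ALL genes.

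A line stood below the rest in T-ALL for TRBC1 in ALL-SIL (9.03, next 11.97), BEX3 in ALL-SIL (4.0, next 9.97), FYN in Molt4 (8.82, next 9.41), PRKCB in HPB-ALL (4.27, next 8.07), GRAP in HPB-ALL (5.88, next 6.44), AQP3 in ALL-SIL (7.47, next 9.78), STIM1 in ALL-SIL (6.76, next 7.30) and HDAC1 in CCRF-CEM (10.45, next 10.93). In BCP-ALL this held for CD74 in 697 (10.77, next 11.58), CD24 in RS4,11 (9.53, next 11.41), HLA-DPA1 in Nalm16 (6.13, next 12.52), LAT2 in Nalm6 (9.08, next 10.60), PRKCQ in Nalm6 (5.62, next 6.96), PLCG2 in 697 (7.16, next 8.30), UBASH3B in Nalm6 (7.07, next 9.60), FLT3 in Nalm6 (4.16, next 7.33) and PIK3CB in Nalm16 (5.30, next 6.56). HLA-DPA1 in Nalm16, BEX3 in ALL-SIL and PRKCB in HPB-ALL had the widest gaps of these.

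In the remaining groups every line was near the floor, so the step between lines is within the range where the array has little signal. These were CD3D in Nalm16 (4.38, next 4.04), CD74 in HPB-ALL (4.75, next 4.13), SH2D1A in Nalm16 (4.64, next 4.24), BEX3 in RS4,11 (4.07, next 4.01), IL32 in Nalm30 (4.02, next 4.0), CD1B in Nalm30 (4.45, next 4.11), NCF4 in CCRF-CEM (4.92, next 4.03), UBASH3A in Nalm16 (4.02, next 4.0), BTK in P12-ICHIKAWA (4.26, next 4.08), SLC40A1 in Nalm16 (4.32, next 4.05), ALDH1A2 in Nalm30 (4.21, next 4.06) and NPY in Molt4 (4.98, next 4.15).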

How the results depend on the processing

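The counts of genes higher in T-ALL (497) and of genes lower in T-ALL (461) moved by over 1.5 times under these settings. Array weights gave 1233 and 1135, with P12-ICHIKAWA and TALL-1 weighted at 5.68 and 5.58 and Nalm16 at 0.20. With P12-ICHIKAWA and TALL-1 as 1 line the counts were 303 and 307, and with both close pairs as 1 line each 229 and 243. Without Nalm16 and Nalm30, a setting chosen after seeing the data, they were 321 and 347. Leaving out 1 line at a time gave 307 (without TALL-1) to 749 (without REH) higher and 302 (without TALL-1) to 477 (without Nalm6) lower genes, and 312 were higher without P12-ICHIKAWA. The cause was not tested, and the settings that leave out or average lines also hold fewer of them. Quantile normalization (492 and 534, with the median of all genes at -0.05), equal array medians (575 and 461), no expression filter (425 and 402 of 18568 genes) and the most variable probe set (507 and 472) stayed within 1.5 times, as did a trended robust variance. Of the named differences that passed, 1 reversed, PDK3, at -0.43 (adjusted p = 0.469) on its most variable probe set. VAV3, which did not pass, also changed sign, to -0.28 (adjusted p = 0.879) without Nalm16 and Nalm30. With both close pairs as 1 line each 26 named differences lost their call, and 110 kept their direction and their side of the threshold. These counts and the reversals above cover only the genes named by rule and the 29 chosen after their values were seen. Other list members that lost their call with the close pairs averaged are not counted here and are given where they are described. No paired analysis was possible because the labels give no replicate numbers and each line belongs to 1 lineage. Depth does not apply to arrays, and values near the floor of 4 limit what can be said of low genes.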
